A study of Rattus norvegicus with 10 samples.

Results

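Cyclic AMP acts in cells through a small set of proteins that bind it or respond to the kinase it activates, and 8 genes for such effectors were followed here: the transcription factors Creb1 and Crem, the CREB coactivators Crtc1, Crtc2 and Crtc3, the EPAC exchange factors Rapgef3 and Rapgef4, and the channel gene Hcn2. The genes were taken by symbol from the deposited table of counts per gene, which has 17168 rows. Of the 8, 6 were found by symbol, and these 6 were all kept by the filter on low counts. Crtc3 and Rapgef4 were not analysed here. The ibudilast group held 5 male TgF344-AD rats (genotype Tg-AD) fed ibudilast chow from 5 months of age for 6 months, and the untreated group held 5 male rats of the same genotype fed rodent chow. Ibudilast is an inhibitor of cyclic nucleotide phosphodiesterases, the enzymes that break down cAMP and cGMP. TgF344-AD rats are Fischer 344 rats that carry human transgenes and serve as a model of Alzheimer's disease. Every rat in both groups is transgenic, and no wild-type rats were part of the comparison. At 11 months all rats were anaesthetised with ketamine and xylazine and perfused, and RNA from the left hippocampus was sequenced as 1 library per rat. Tissue of the ibudilast rats alone was stored in RNAlater-ICE, per the series' design text, so drug and storage cannot be told apart in any comparison below.

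The protein kinase A pathway leads from cAMP to CREB: the kinase phosphorylates CREB, which sits on cAMP response elements (CREs) in promoters and then recruits the acetyltransferases CBP and p300. CRTC proteins are kept in the cytoplasm by phosphorylation through salt-inducible kinases, are released by the calcium-dependent phosphatase calcineurin, and bind CREB in the nucleus. EPAC proteins bind cAMP directly and load Rap GTPases with GTP without the kinase, and HCN channels are opened by hyperpolarisation and shifted by direct cAMP binding. In the hippocampus CREB and CRTC1 are known for activity-dependent transcription and long-term memory, and HCN channels for setting the excitability of pyramidal cell dendrites.

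Library totals were 14806807 to 17114238 counts with ibudilast and 15984438 to 18533520 counts without. Each hippocampal cell type had markers that were detected in every library, though not every listed marker was. Excitatory neuron markers summed to 1502 to 5988 CPM (the read count scaled to library size) with ibudilast and 5027 to 7780 CPM in untreated rats, with 3 of 10 lower, and interneuron markers to 531 to 669.7 and 692 to 1072 CPM, with 4 of 10 lower and 1 higher. Oligodendrocyte markers summed to 15982 to 19006 CPM with ibudilast and 7822 to 15319 CPM in untreated rats, with 6 of 12 higher. Astrocyte markers summed to 7653 to 9299 and 7104 to 11233 CPM (4 of 10 lower), microglial markers to 472 to 567 and 589 to 1115 CPM (6 of 10 lower), and endothelial markers to 209 to 486 and 436 to 827 CPM (6 of 10 lower). Dentate granule markers summed to 89.1 to 205 CPM with ibudilast and 129 to 316 CPM in untreated rats, with 2 of 4 tested lower and Tdo2 at 0 in all 10 libraries. By the same test, described below, 24.3% of all genes tested were higher and 22.8% lower. In ibudilast replicate 4, Slc17a7, the vesicular glutamate transporter of hippocampal principal cells, was at 236 CPM against 1099 to 1671 CPM in the other ibudilast rats, and Slc17a6, which marks thalamic and other subcortical glutamatergic neurons, was at 132 CPM against 8.2 to 14.8 CPM. In untreated replicate 3, Prox1, a granule cell marker, was at 4.50 CPM against 30.4 to 51.9 CPM in the other untreated rats. The choroid plexus gene Ttr was at 6666 CPM in ibudilast replicate 1 and 7121 CPM in untreated replicate 2, whereas no other library exceeded 317 CPM. These 4 libraries stood apart, and results are given with and without them where it matters.

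With ibudilast 3 of the 6 genes were higher and 2 were lower. Crtc2, Rapgef3 and Hcn2 rose, Creb1 and Crtc1 fell, and Crem did not pass the test (edgeR's quasi-likelihood test, Benjamini-Hochberg adjusted p under 0.05 over 12355 genes tested). By the same test 47.1% of all genes tested were called, 24.3% higher and 22.8% lower, so calls were common throughout the table. CPM ranges of the groups did not overlap for 4 of the 6 genes, Creb1, Crtc1, Crtc2 and Hcn2, against 33.4% of all genes tested. The same 5 genes were called in the same direction when each rat was left out in turn and without the 2 or the 4 libraries that stood apart. In bulk tissue, fewer cells of a type and less RNA per cell cannot be told apart, and whether the shifts in marker genes have a part in these differences was not tested.

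**Figure D1:**
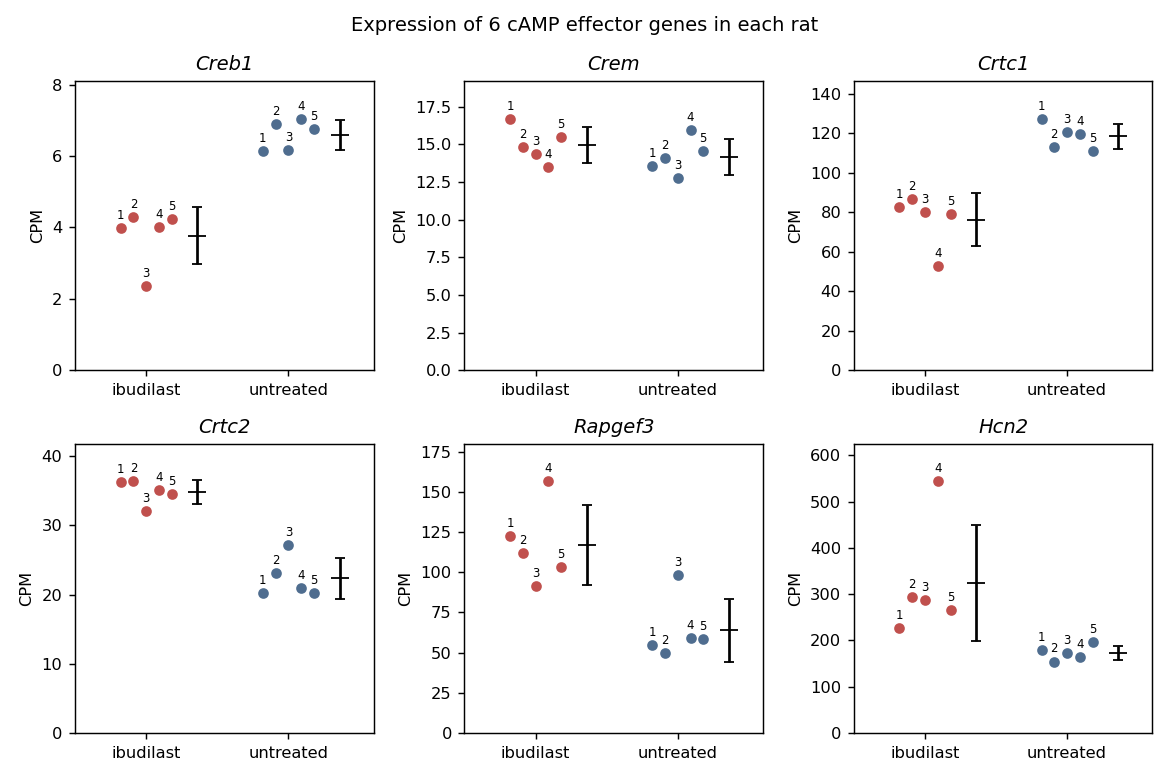
Normalised read counts (CPM, y axes from 0) of the 6 genes in each rat, with numbers marking the replicate and bars the mean ± SD of 5 rats. Creb1 and Crtc1 lie lower and Crtc2 and Hcn2 higher in every ibudilast rat than in any untreated rat, Rapgef3 overlaps through untreated replicate 3 at 98.3 CPM, and Crem overlaps widely.

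Creb1 encodes CREB, the founding factor of the pathway. It was at 3.97, 4.29, 2.37, 4.02 and 4.23 CPM in ibudilast replicates 1 to 5, against 6.13, 6.90, 6.18, 7.05 and 6.76 CPM in untreated replicates 1 to 5. Every ibudilast rat lay below every untreated rat. The mean was 3.77 ± 0.796 CPM with ibudilast and 6.60 ± 0.421 CPM in untreated rats (SD, n = 5 each), a fold of 0.573 (95% confidence interval 0.443 to 0.740) and a log2 fold change of −0.80 ± 0.17 (SE, edgeR adjusted p = 0.00275). Creb1 was the gene with the fewest reads of the 6, with 34 to 73 counts per ibudilast library and 99 to 131 per untreated library, and its value rests on that depth. Ibudilast replicate 3 was the lowest, and without it the log2 fold change was −0.68.

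Crem encodes a close relative of CREB whose transcripts give activators or repressors according to splicing and promoter use. Among its products is ICER, a short repressor made from an internal promoter that CREB itself drives through CREs. Its values were 16.7, 14.8, 14.4, 13.5 and 15.5 CPM in ibudilast replicates 1 to 5, against 13.6, 14.1, 12.7, 16.0 and 14.5 CPM in untreated replicates 1 to 5. The groups overlapped over most of their range. The mean was 14.96 ± 1.21 CPM with ibudilast and 14.19 ± 1.196 CPM in untreated rats (SD, n = 5 each), and the fold of 1.05 had a 95% confidence interval of 0.921 to 1.21 (edgeR adjusted p = 0.506). The table has a single row for Crem, so activator, repressor and ICER transcripts were counted together.

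RefSeq lists 3 start windows for Crem and 2 for Creb1 in the GRCr8 build, each 250 bases before to 50 after a transcript start. They are shown because CREB acts on genes, its own family included, through the CRE. Motifs searched on both strands were the full CRE, TGACGTCA, which reads the same on either strand, and the short CRE core TGACG, of which each full CRE holds 1 per strand. Full CREs were found in Crem windows 2 and 3 (1 and 2 matches) and in neither Creb1 window, while Creb1 window 1 held 3 short CRE cores, 2 of them upstream of the start. The 250 bases upstream of the start are printed for these windows 5′ to 3′, with the full CRE in capitals for Crem and the short CRE cores in capitals for Creb1. The deposited table does not say which start a read came from.
Crem window 2 (GRCr8 chr17:58984547-58984796, + strand): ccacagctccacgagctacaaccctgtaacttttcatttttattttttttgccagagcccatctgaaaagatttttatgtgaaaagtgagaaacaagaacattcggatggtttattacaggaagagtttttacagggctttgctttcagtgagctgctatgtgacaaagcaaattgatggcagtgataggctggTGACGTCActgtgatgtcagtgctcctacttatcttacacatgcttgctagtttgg
Crem window 3 (GRCr8 chr17:58985240-58985489, + strand): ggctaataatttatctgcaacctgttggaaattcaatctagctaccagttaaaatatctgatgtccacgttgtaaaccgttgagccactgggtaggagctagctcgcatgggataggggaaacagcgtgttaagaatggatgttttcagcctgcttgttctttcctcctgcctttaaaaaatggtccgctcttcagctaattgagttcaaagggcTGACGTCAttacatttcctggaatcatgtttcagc
Creb1 window 1 (GRCr8 chr9:73397259-73397508, + strand): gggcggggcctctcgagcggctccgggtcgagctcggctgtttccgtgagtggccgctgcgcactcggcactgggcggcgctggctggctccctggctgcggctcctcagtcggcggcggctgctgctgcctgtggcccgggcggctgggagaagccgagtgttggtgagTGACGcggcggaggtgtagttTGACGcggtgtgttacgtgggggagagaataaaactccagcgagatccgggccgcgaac
Of all 33469 RefSeq windows, 1.83% held a full CRE and 21.2% a short CRE core. Counted by gene, 549 of 27457 genes held a full CRE in any of their windows. The windows of Crtc1, Rapgef3 and Hcn2 held neither motif, and that of Crtc2 held 1 short CRE core. For the CREB target genes described further on, 15 of 21 symbols had windows, and 6 of these 15 genes held a full CRE: Dusp1, Vgf, Scg2, Sst, Cartpt and Ppargc1a. Of these, Cartpt and Ppargc1a were called lower with ibudilast, and Dusp1, Vgf, Scg2 and Sst did not pass. Among the genes without a full CRE, Fosb, Junb, Egr1, Nr4a1, Nr4a2 and Bdnf were called lower. Per1, Gadd45b and Sik1, also without one, did not pass. A match is a string of letters in this window and does not show that a factor binds there.

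Crtc1 is the coactivator best known from neurons, where it travels from synapse to nucleus on activity. It was at 82.4, 86.8, 80.1, 52.6 and 79.2 CPM in ibudilast replicates 1 to 5, against 127, 113, 120.3, 119.6 and 111 CPM in untreated replicates 1 to 5. All ibudilast rats were below all untreated rats, with replicate 4 lowest. The mean was 76.2 ± 13.5 CPM with ibudilast and 118 ± 6.40 CPM in untreated rats (SD, n = 5 each), a log2 fold change of −0.63 ± 0.12 (SE, edgeR adjusted p = 0.00167). Without untreated replicate 3 and ibudilast replicate 4 it was −0.52 ± 0.06.

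Crtc2, which is best known for driving the gluconeogenic programme in liver, moved the other way. It was at 36.2, 36.4, 32.1, 35.1 and 34.6 CPM in ibudilast replicates 1 to 5, against 20.2, 23.1, 27.2, 20.9 and 20.3 CPM in untreated replicates 1 to 5. The groups did not overlap, and untreated replicate 3 was the highest of its group. The mean was 34.9 ± 1.73 CPM with ibudilast and 22.3 ± 2.97 CPM in untreated rats (SD, n = 5 each), a fold of 1.56 (95% confidence interval 1.36 to 1.80) and a log2 fold change of 0.64 ± 0.09 (SE, edgeR adjusted p = 3.10e-04). Crtc2 had the smallest adjusted p of the 6 genes. Slc39a1, a zinc transporter gene within 5 kb of it in GRCr8, was at −0.09 on the log2 scale (edgeR adjusted p = 0.514).

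Rapgef3 encodes EPAC1, the more widely expressed of the EPAC proteins. It was at 122, 112, 91.1, 156 and 103 CPM in ibudilast replicates 1 to 5, against 54.4, 49.6, 98.3, 59.1 and 58.5 CPM in untreated replicates 1 to 5. The groups overlapped through untreated replicate 3 alone, which lay above ibudilast replicate 3. The mean was 117 ± 24.8 CPM with ibudilast and 64.0 ± 19.6 CPM in untreated rats (SD, n = 5 each), a fold of 1.83 (95% confidence interval 1.34 to 2.49) and a log2 fold change of 0.87 ± 0.20 (SE, edgeR adjusted p = 0.00501). Untreated replicate 3 also had the highest sums of endothelial, microglial and astrocyte markers of all 10 libraries, at 827, 1115 and 11233 CPM. With ibudilast 6 of 12 oligodendrocyte markers were higher (sums of 15982 to 19006 CPM, against 7822 to 15319 CPM in untreated rats), while 6 of 10 endothelial, 6 of 10 microglial and 4 of 10 astrocyte markers were lower. Of all genes tested 24.3% were higher and 22.8% lower, and the part of these cell types in the Rapgef3 difference was not tested. Without untreated replicate 3 and ibudilast replicate 4 the log2 fold change was 0.95 ± 0.10.

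Hcn2 encodes a pacemaker channel subunit with a strong response to cAMP. It was at 227, 294, 288, 543 and 266 CPM in ibudilast replicates 1 to 5, against 179, 154, 173, 164 and 195 CPM in untreated replicates 1 to 5. No ibudilast rat was as low as the highest untreated rat, and replicate 4 stood far above its group. The mean was 324 ± 126 CPM with ibudilast and 173 ± 15.6 CPM in untreated rats (SD, n = 5 each), a fold of 1.87 (95% confidence interval 1.35 to 2.58) and a log2 fold change of 0.90 ± 0.21 (SE, edgeR adjusted p = 0.00539). Without ibudilast replicate 4, the library with low Slc17a7 and high Slc17a6, the log2 fold change was 0.61, and with all 4 of the doubtful libraries removed it was 0.65 ± 0.08 (edgeR adjusted p = 1.10e-04). Bsg, an abundant gene within 5 kb of Hcn2 in GRCr8, was at 0.12 on the log2 scale (edgeR adjusted p = 0.422), and Polrmt, also within 5 kb, rose by 0.81 (edgeR adjusted p = 2.14e-05).

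**Figure D2:**
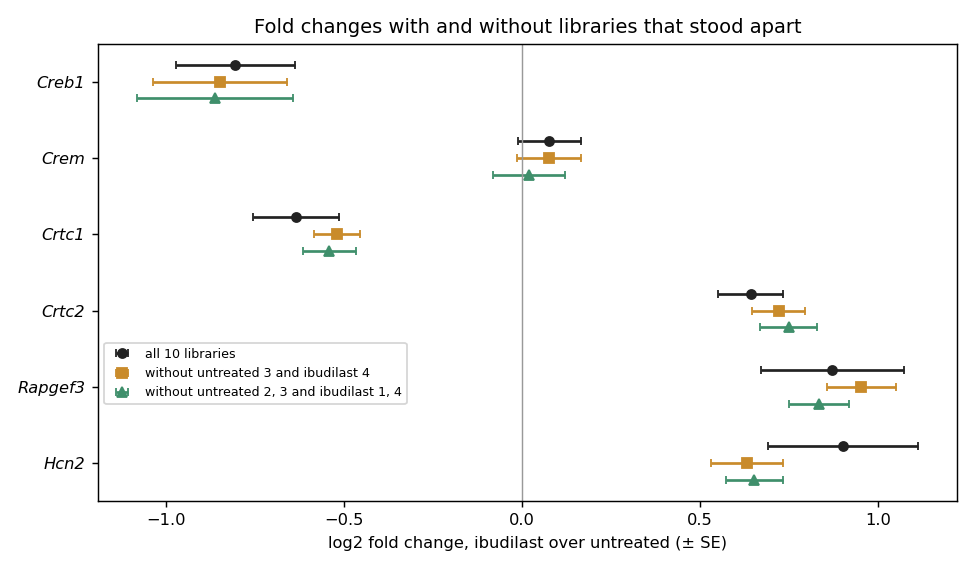
Log2 fold changes of the 6 genes (ibudilast over untreated, x axis; points are edgeR estimates and bars the SE) with all 10 libraries, without 2 libraries and without 4. Directions are the same in each setting, Crem lies near 0, and Hcn2 drops to 0.63 on the log2 scale without untreated replicate 3 and ibudilast replicate 4, against 0.90 with all libraries.

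In a ratio of related genes within a library the scaling factor cancels except for the prior count of 2 added to each gene, and 2 such ratios are given. With the smaller and the larger prior count tried, the difference in the log2 ratio of Creb1 to Crem was −0.91 and −0.86 (ibudilast minus untreated), against −0.89 here. The log2 ratio of Creb1 to Crem averaged −1.98 ± 0.34 with ibudilast and −1.09 ± 0.06 in untreated rats (SD, n = 5 each). Values ran from −2.54 to −1.72 in ibudilast rats and from −1.17 to −1.02 in untreated rats, with no overlap. The log2 ratio of Crtc1 to Crtc2 averaged 1.10 ± 0.30 with ibudilast and 2.41 ± 0.20 in untreated rats, a difference of −1.30 (ibudilast minus untreated) that shifts the balance towards Crtc2. Per rat it was 1.18, 1.25, 1.32, 0.58 and 1.19 with ibudilast, against 2.65, 2.29, 2.14, 2.51 and 2.45 in untreated rats. Both ratios had an exact permutation p of 0.00794 (two-sided, adjusted over the 2 ratios 0.00794), the smallest that 5 against 5 rats can give. Crtc1 was lower and Crtc2 higher in every ibudilast rat than in any untreated rat. The p of their ratio was fixed by those values and adds no support of its own. On the log2 scale Creb1 was at most 2.14 with ibudilast and at least 2.64 in untreated rats. Crem spanned only 3.68 to 4.07 over all 10 libraries, a narrower stretch than that gap. The p of the Creb1 to Crem ratio was therefore fixed by the Creb1 values, and it adds no support either.

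**Figure D3:**
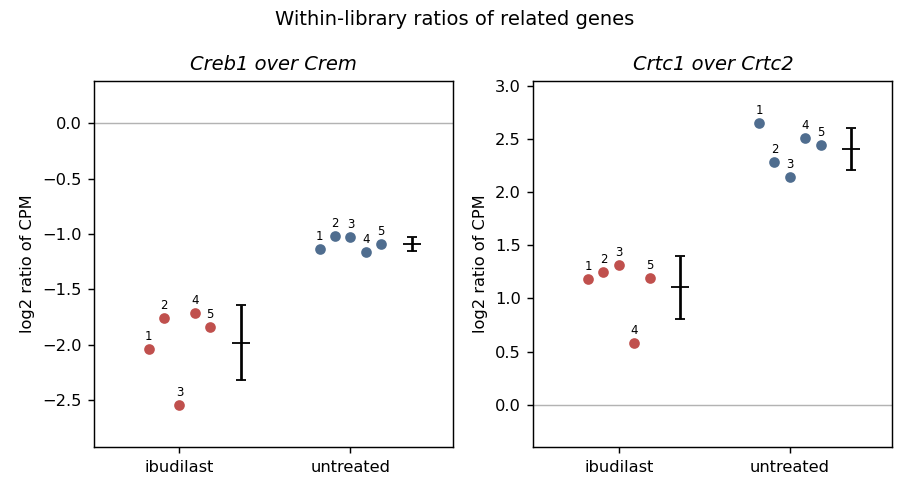
Within-library log2 ratios of CPM for Creb1 over Crem and for Crtc1 over Crtc2 in each rat, with numbers marking the replicate and bars the mean ± SD of 5 rats. The groups do not overlap in either panel: Crtc1 over Crtc2 is at most 1.32 with ibudilast and at least 2.14 in untreated rats.

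Among 13 CREB, CREM and ATF relatives, 11 were tested, and 2 fell, 0 rose and 9 did not pass, with a median log2 fold change of −0.02 against 0.02 over all genes tested. The share called was 18.2%, against 47.1% of all genes tested (22.8% lower), and whether the list differs from other genes was not tested. Atf2, a CRE-binding factor activated by stress kinases, fell to 25.7 ± 4.16 CPM with ibudilast, against 57.0 ± 7.22 CPM in untreated rats (SD, n = 5 each; log2 fold change −1.15 ± 0.12, edgeR adjusted p = 6.01e-05). Crebrf, a regulator of CREB3 proteins, fell by 0.48 on the log2 scale. Creb5 was at 0.32 (edgeR adjusted p = 0.214) and Crebzf at 0.10 (0.291), a value that was −0.02 without the 4 libraries that stood apart. Creb3l3 and Creb3l4 had at most 5 counts in any library and were not tested.

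Of the 13 tested coactivators, kinases and phosphatases of CREB and CRTC, 6 fell, 1 rose and 6 did not pass, and the median log2 fold change was −0.37. That is 53.8% called in either direction, near the 47.1% over all genes tested. By direction, 6 of the 13 fell, while 22.8% of all genes tested were lower. Whether the list differs from other genes was not tested. The calcineurin subunit genes were among those that fell most. Ppp3r1, the regulatory subunit, was at 310.2, 357, 419, 185 and 398 CPM with ibudilast, against 991, 958, 454, 906 and 1070.4 CPM in untreated rats (log2 fold change −1.39 ± 0.26, edgeR adjusted p = 0.00164). Ppp3cb, a catalytic subunit, fell by 1.34. Both genes were lowest in ibudilast replicate 4 and, among untreated rats, in replicate 3, and neither pair of groups overlapped. Rps6ka3 and Rps6ka5, the kinases RSK2 and MSK1 that phosphorylate CREB, fell by 0.79 and 0.42. Rps6ka1, another RSK kinase, rose by 0.50 (edgeR adjusted p = 0.0143) but did not pass when untreated replicate 2 was left out (0.43, edgeR adjusted p = 0.0507). Ep300 and Sik2 were not analysed here.

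Of 21 genes known as CREB targets, 11 fell, 0 rose and 10 did not pass, and the median log2 fold change was −0.63. Sik1, which did not pass, was counted both here and among the coactivators, kinases and phosphatases. The share called was 52.4%, all of it lower, while of all genes tested 22.8% were lower and 47.1% were called in either direction. Whether the list differs from other genes was not tested. Of the excitatory neuron markers 3 of 10 were lower too, and of the interneuron markers 4 of 10, with 1 higher. So were 4 of 10 astrocyte, 6 of 10 microglial, 6 of 10 endothelial and 2 of 4 dentate granule markers. Of the oligodendrocyte markers 6 of 12 were higher, and the part of these cell types was not tested. Egr1, an immediate early transcription factor, was at 23.3, 50.1, 24.1, 28.0 and 30.0 CPM with ibudilast, against 64.9, 58.6, 102, 89.6 and 59.9 CPM in untreated rats (log2 fold change −1.27 ± 0.24, edgeR adjusted p = 0.00160). The groups did not overlap. Nr4a3, an orphan nuclear receptor induced by cAMP, was at 16.1, 18.5, 20.4, 7.38 and 22.3 CPM with ibudilast, against 76.2, 55.2, 21.4, 54.5 and 59.4 CPM in untreated rats, where only replicate 3 reached down to the ibudilast range (log2 fold change −1.66 ± 0.35, edgeR adjusted p = 0.00297). Pcsk1, a prohormone convertase, fell by 1.12 on the log2 scale. Fosb, a partner of Jun proteins in AP-1, fell by 1.00, a call that was lost without the 4 libraries that stood apart (−0.76, edgeR adjusted p = 0.0626). Bdnf, the neurotrophin gene most often used to read CREB activity, was named after its value was seen: it fell by 1.16 (edgeR adjusted p = 0.0202), with untreated replicate 3 at 18.1 CPM against 52.2 to 62.9 CPM in the other untreated rats. The list had 7 calls in place of 11 without ibudilast replicate 1.

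Of 18 tested Rap GTPases, exchange factors and GTPase-activating proteins, 10 fell, 1 rose and 7 did not pass, and the median log2 fold change was −0.44. The share called was 61.1%, against 47.1% of all genes tested (22.8% lower), and whether the list differs from other genes was not tested. In the same libraries 3 of 10 excitatory neuron and 4 of 10 interneuron markers were lower, with 1 interneuron marker higher. Lower too were 4 of 10 astrocyte, 6 of 10 microglial, 6 of 10 endothelial and 2 of 4 dentate granule markers. Of the oligodendrocyte markers 6 of 12 were higher, and the part of these cell types was not tested. Rap1b, a direct substrate of EPAC proteins, was at 16.6, 13.2, 14.3, 12.2 and 15.7 CPM with ibudilast, against 27.4, 29.5, 24.5, 28.2 and 28.5 CPM in untreated rats (log2 fold change −0.94 ± 0.10, edgeR adjusted p = 5.12e-05). The groups were well apart. Rapgef2, a Rap exchange factor of neurons and neuroendocrine cells, was at 88.2, 104, 99.9, 61.0 and 107 CPM with ibudilast, against 207, 179, 154, 188 and 184 CPM in untreated rats (log2 fold change −0.99 ± 0.15, edgeR adjusted p = 3.82e-04). Rap2b and Rap2c fell by 1.04 and 0.64. Rap1gap, which switches Rap off, rose by 0.45 (edgeR adjusted p = 0.0365), and that call was lost in 10 of 20 alternatives, among them each of 8 that left out 1 rat. The list had 7 calls in place of 11 without untreated replicate 4. Rapgef1 and Rapgefl1 were not analysed here.

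In the list of HCN relatives, partners and other cyclic nucleotide-binding proteins, 9 of 13 genes were tested, and 0 rose, 0 fell and 9 did not pass edgeR's test (median log2 fold change 0.04). Over all genes tested 47.1% were called, 24.3% higher and 22.8% lower, and whether the list differs from other genes was not tested. Group means of Cngb1, Cnga4, Bves, Popdc3, Hcn4 and Popdc2 were low, from 0.595 to 4.37 CPM, which limits what the test can find. At an unadjusted p under 0.05 edgeR had 2 of them, Popdc2 and Cngb1, while DESeq2 called 0 and limma-voom called 1, Popdc2, after adjustment. Pex5l, which encodes the HCN trafficking subunit TRIP8b, was at −0.30 (edgeR adjusted p = 0.111). Popdc2, a cAMP-binding Popeye protein of muscle, was at 0.67 (edgeR adjusted p = 0.0674) and passed in 6 of 20 alternatives, among them those without untreated replicate 3 (0.91, edgeR adjusted p = 0.00722). Cngb1, a subunit of cyclic nucleotide-gated channels, was at 0.90 (edgeR adjusted p = 0.0702) with means of 1.12 and 0.595 CPM in ibudilast and untreated rats. Cnga4, another such subunit, was at 0.50 (edgeR adjusted p = 0.113). The list had 2 calls in place of 0 without untreated replicate 3, Popdc2 and the Popeye gene Bves, named after its value was seen (−0.997 on the log2 scale, edgeR adjusted p = 0.0348, against 0.221 with all libraries), and 1 without untreated replicate 2, Pex5l (−0.40, edgeR adjusted p = 0.0313). Cnga1, Cnga2, Cnga3 and Cngb3 had at most 6 counts in any library and were not tested.

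**Figure D4:**
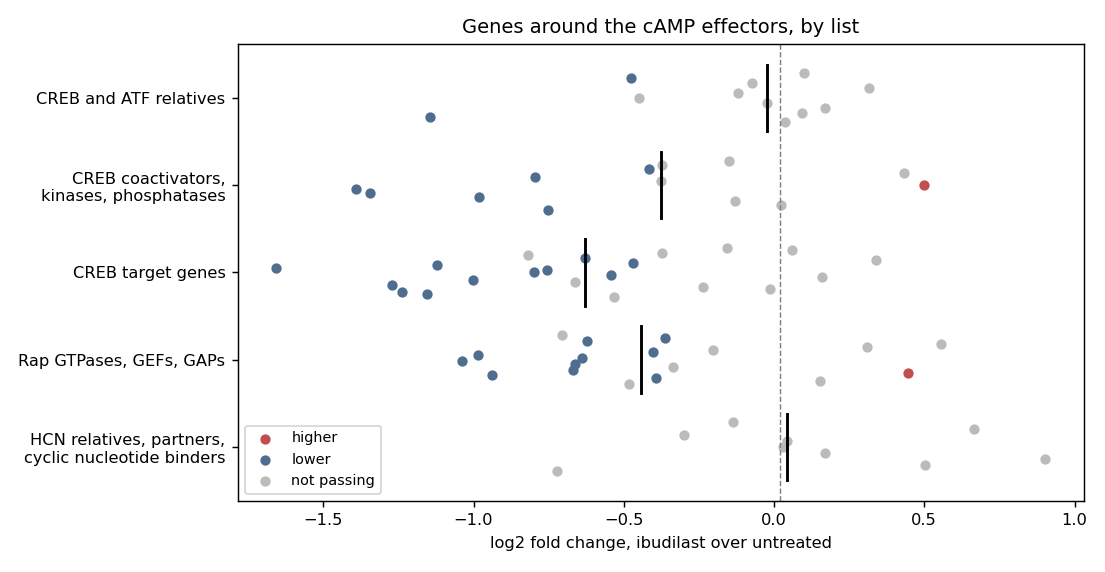
Log2 fold changes (ibudilast over untreated, x axis) of the tested genes in 5 lists around the cAMP effectors; each point is a gene, coloured by whether it passed edgeR's test higher, lower or not, black bars are list medians and the dashed line is the median of all genes tested (0.02). Medians are lowest for CREB target genes (−0.63) and for Rap genes (−0.44).

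Variation between rats of the same group was described by correlating log2 CPM over the 10 libraries after subtracting each group's mean, and up to 3 of the most alike genes are given for each effector. Crtc1 varied most like Dlgap2, Cplx2 and Gda (r = 0.97, 0.97 and 0.96), of which Dlgap2 encodes a postsynaptic scaffold and Cplx2 a complexin of synaptic vesicle fusion. Hcn2 varied most like Ccdc91, Hs6st1 and Kcnh2 (r = 0.98, 0.97 and 0.97), the last a potassium channel gene. For Rapgef3 these were Mettl24, Ncf4 and Tctex1d1 (r = 0.98, 0.97 and 0.97), and for Crtc2 they were Mxd4, Snrnp70 and Fzd4 (r = 0.97, 0.96 and 0.96). Creb1 varied most like Ptger2, Taf3 and Slc7a2 (r = 0.94, 0.93 and 0.92) and Crem most like Bbox1 and Ssmem1 (r = 0.95 and 0.95). These are the best of 12355 genes over 10 libraries that share the 4 that stood apart, and they are given as a description.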

How the data were processed

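Left hippocampal RNA of 10 rats was measured, 1 library per rat, and the titles gave group and replicate number. The kit was a stranded mRNA kit, per the labels. The deposited table gives the authors' expected counts by gene symbol, without normalization. Of its values, 12.0% were not whole, and all were rounded before testing. RSEM 1.2.15, Bowtie2 2.1.0, bcl2fastq and edgeR, with the rn6 build, are named in the submitters' processing notes without a role for each. The annotation, and whether counting used strand, is not given in the sources used here. No pair of libraries of a group agreed within sampling noise (lowest chi-square per gene 11.5). A deposited table of normalized values was not used.

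The test was edgeR's robust quasi-likelihood F test, run in R 4.3.3 with edgeR 4.0.16 and limma 3.58.1, with TMM factors and Benjamini-Hochberg adjustment over the 12355 genes that filterByExpr kept. CPM used TMM-scaled library sizes, and log2 ratios a prior count of 2. SE is the log2 fold change over the square root of F. The fit was tested on simulated counts. Members and lists were chosen with earlier results of these data known. Named genes were all members, up to 4 per list by smallest p, and genes behind counts of 5 or fewer. Alternatives were other scaling (upper-quartile, RLE, none), other filters, DESeq2 1.42.0, limma-voom, a replicate block and left-out libraries. Some planned results are not reported here, and list counts leave them out. Replicate numbers did not pair the rats. CPM is not corrected for length, so levels are not compared between genes. Neighbours and promoter sequences came from RefSeq (GRCr8), matched by symbol, and served for names and sequences only.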

Additional observations from a re-analysis of the deposited data

Results flagged for a closer look

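In groups of 5 rats, 5 values lay so far from the rest of their group that the gap took up most of its range (Dixon's test at the 95% level, 16 groups examined, of which chance flags about 1). Creb1 was at 2.37 CPM in ibudilast replicate 3, against 3.97 to 4.29 CPM in the other ibudilast rats. Ibudilast replicate 4 gave 3 of the 5, with Crtc1 at 52.6 CPM, Hcn2 at 543 CPM and the log2 ratio of Crtc1 to Crtc2 at 0.58. The ratio rests on the same Crtc1 value, since Crtc2 was at 35.1 CPM in that rat, within its group's 32.1 to 36.4 CPM. The 5 flags are therefore not independent. Rapgef3 was at 98.3 CPM in untreated replicate 3, against 49.6 to 59.1 CPM in the other untreated rats.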

How the results depend on the processing

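The count of 5 called effectors was the same under all 20 alternatives, and all genes called ran from 4726 (replicate block) to 6857 (the setting without 4 libraries, untreated 2 and 3 with ibudilast 1 and 4, chosen after seeing the data). Leaving out 1 rat gave 5115 to 6292 genes called, 5 effectors, 2 to 3 CREB relatives, 5 to 9 CREB regulators, 7 to 11 CREB targets, 7 to 14 Rap genes, 0 to 2 HCN-list genes, and ratio differences of −0.96 to −0.75 (Creb1 to Crem) and −1.37 to −1.17 (Crtc1 to Crtc2). Replicate numbers paired no more than 1 of 5 rats (r = 0.42 for number 5, −0.33 to −0.11 for the others). With the replicate block, 7 CREB targets and 1 gene of the HCN list were called and Bdnf lost its call (−1.16, edgeR adjusted p = 0.0712), while the ratio differences stayed at −0.89 and −1.30 with an exact sign-flip p of 0.0625, the smallest 5 pairs allow. Library size alone, limma-voom and leaving out 2 or 4 libraries also gave 1 gene of the HCN list, Popdc2 each time. Without the 4 libraries the ratio differences were −0.92 and −1.28 (exact permutation p = 0.100, the smallest 3 against 3 can give), and Crebzf was at −0.017 on the log2 scale, against 0.10 with all libraries. The cause of these changes was not tested. Creb1, at 34 to 131 counts, is the effector limited most by depth.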
